A study of Mus musculus with 2 samples.

Results

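The 58 genes described here encode the proteins that carry glucose into the cell, break it down to pyruvate and lactate, divert it into the pentose phosphate pathway and oxidise its carbon in the TCA cycle. Txnip, which restrains glucose uptake, was listed with them. The genes were taken from a list of symbols that was chosen with earlier results of these data known. Of them, 54 had a probe set whose annotation named that gene alone, out of 19935 genes so measured. Gpi1, Gapdh, Eno1 and G6pdx were not measured in this way. Among several such probe sets of a gene, that with the highest 2-array mean was kept.

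The samples were Ba/F3 cells, a mouse pro-B-like line that normally needs interleukin-3 (IL-3) to live. All cells constitutively expressed BCR-ABL, the fusion kinase of chronic myeloid leukaemia, and all were treated with imatinib, an inhibitor of the ABL kinase, at 5 µM for 6 h in medium with 10% serum. One array, titled Live-IL3, came from cells given IL-3, which the submitters describe as resistant, and the other, titled Live-NoIL-3, from cells without IL-3, described as sensitive. The sources used here do not say whether the line is 1 clone or which promoter drives BCR-ABL.

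Each condition had 1 array, so there was no replicate error, no test was possible, and every difference compares these 2 arrays. The values are log values, taken as log2, given relative to a reference value per probe set, here called the baseline, that drew on arrays not analysed here. They therefore show no expression level, and levels of different genes cannot be compared. Every difference is the value with IL-3 less the value without IL-3, and higher values were taken to mean more transcript. The description of the first array contradicts its title on IL-3. If the 2 labels were exchanged, every direction below would turn. Probe sets of the same gene gave differences with a pooled SD of 0.14. Some of these probe sets gave nearly equal values, and others stood among genes of another chromosome. The SD does not measure the variation between cultures. It serves below as a yardstick of size and is not the error of a difference. In bulk RNA, fewer cells of a type and less RNA per cell cannot be told apart.

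Glycolysis turns glucose into pyruvate in the cytosol, with hexokinase, phosphofructokinase and pyruvate kinase as its largely one-way steps, and lactate dehydrogenase returns NAD+ by making lactate. The pentose phosphate pathway branches off after hexokinase and supplies NADPH and ribose, while the pyruvate dehydrogenase complex feeds acetyl-CoA into the TCA cycle in mitochondria. Growth factors such as IL-3 are known to sustain glucose uptake and glycolysis in dependent haematopoietic cells, and BCR-ABL is known to do the same in their absence.

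Most of the measured genes were higher with IL-3, by less than 2-fold. The gene list was chosen with earlier results of these data known, so the shares below only describe it. The difference was above 0 in 46 of 54 genes (85.2%), against 59.8% of all named genes, and the median difference was 0.33, against 0.04 over all named genes. In 18 genes the array with IL-3 was at least 1.5-fold higher, against 3.52% of all named genes. Of these, 2 genes, Slc2a1 and Idh3a, passed 2-fold, against 0.441% of all named genes. Idh3a fell short of 2-fold after quantile normalization, at 0.94, and both did after a trend of the difference with the mean was subtracted, at 0.94 for Slc2a1 and 0.65 for Idh3a. Lower with IL-3 by at least 1.5-fold were 2 genes, Txnip and Idh1, against 2.71% of all named genes, and 0 were at least 2-fold lower, against 0.657%. After quantile normalization both passed 2-fold, at -1.05 for Txnip and -1.03 for Idh1, and with the trend subtracted Idh1 did, at -1.22, while Txnip was at -0.98. Of the remaining 34 genes, 10 differed by less than the probe set SD. The 18 higher genes included transporters, enzymes of both ends of glycolysis, kinases of pyruvate dehydrogenase and TCA cycle enzymes. None of the 6 measured pentose phosphate genes was among them, a count that says little beside 3.52% of all named genes.

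**Figure D1:**
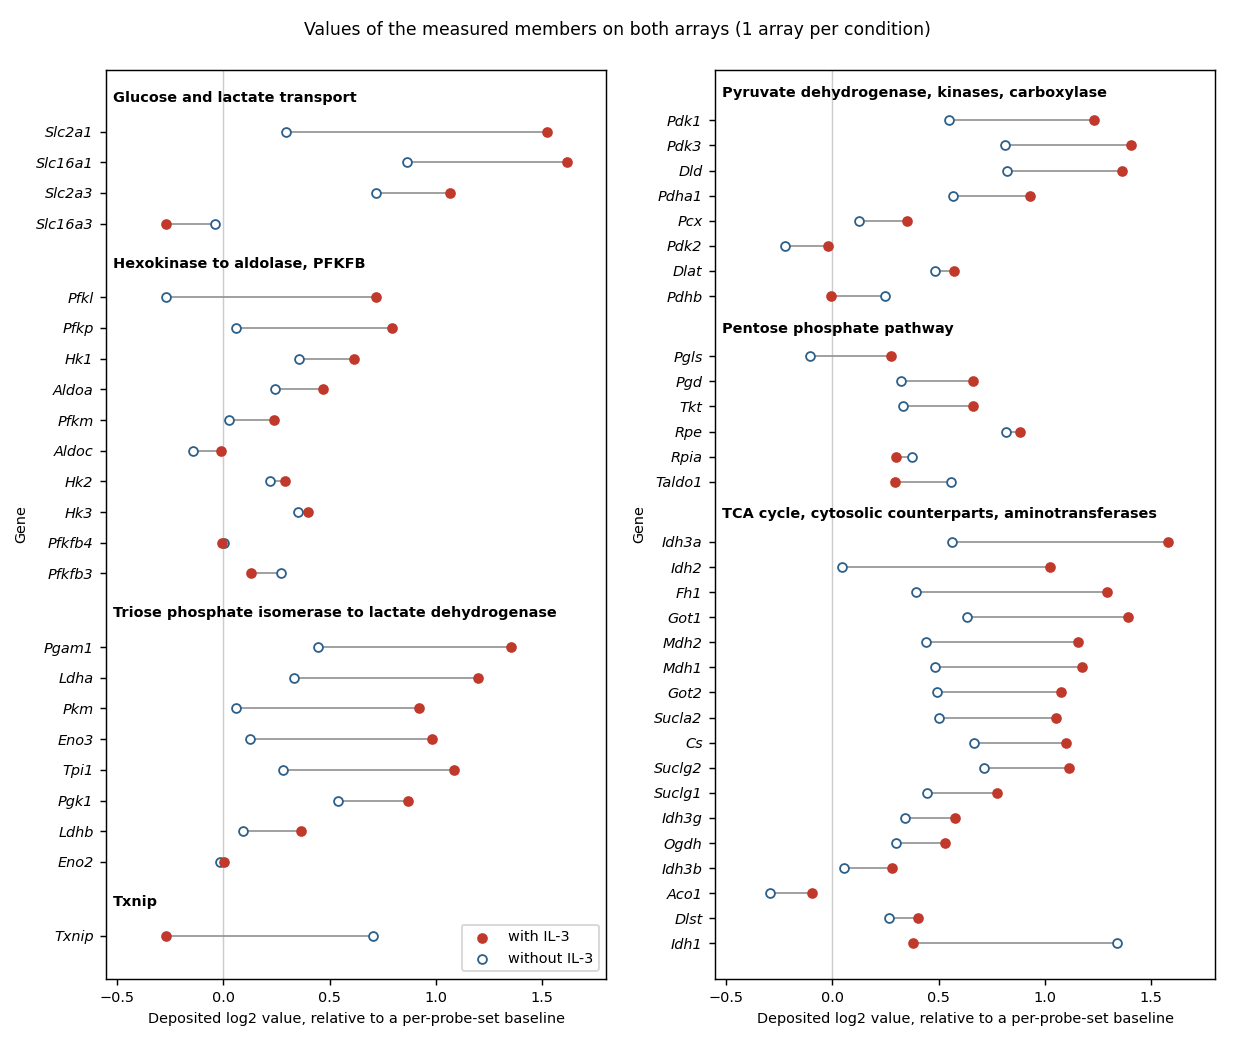
Deposited log values, taken as log2 and relative to a per-probe-set baseline, of the 54 measured genes. Points show the array with IL-3 (filled) and the array without IL-3 (open), grouped by role and ordered by difference. The filled point lies to the right in 46 genes, and Txnip and Idh1 show the longest lines in the opposite direction.

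**Figure D2:**
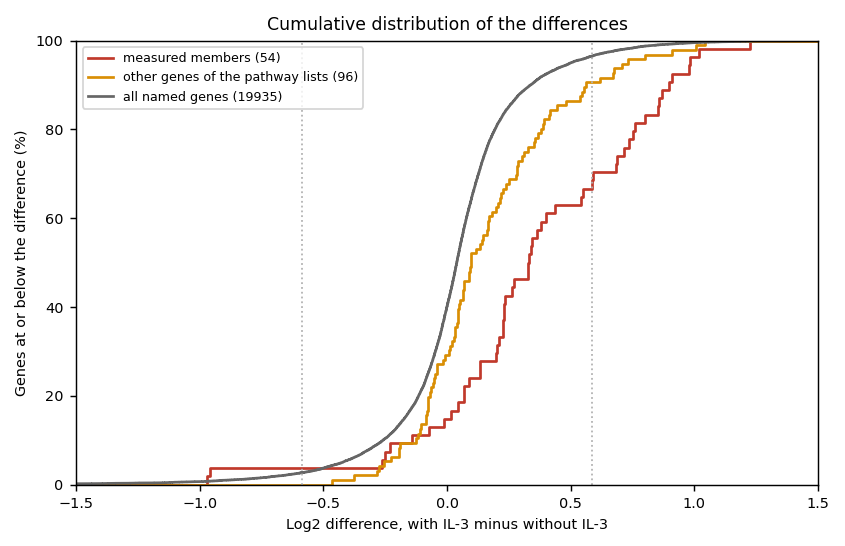
Share of genes (%) at or below each log2 difference, with IL-3 minus without IL-3, for the 54 measured members, 96 other genes of the same pathways and 19935 named genes, with dotted lines at 1.5-fold. The curve of the members lies to the right of that of all genes over most of its range, with medians of 0.33 and 0.04.

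Glucose enters through the facilitative transporters encoded by Slc2a1 (GLUT1) and Slc2a3 (GLUT3), and lactate crosses the membrane with a proton through Slc16a1 (MCT1) and Slc16a3 (MCT4). Slc2a1 had a value of 1.52 with IL-3, against 0.30 without IL-3, a difference of 1.23 or 2.34-fold that ranked 20 from the top of 19935 genes. Slc2a3 had a value of 1.07 with IL-3, against 0.72 without IL-3, a difference of 0.35. Both transporter genes were thus above the baseline on both arrays, and the difference of Slc2a1 was larger by 0.88 on the log2 scale. Slc16a1 had a value of 1.62 with IL-3, against 0.87 without IL-3, which made it 1.68-fold higher. Slc16a3, the transporter usually linked to lactate export from highly glycolytic cells, had a value of -0.27 with IL-3, against -0.04 without IL-3, so that the differences of the 2 monocarboxylate transporter genes, 0.75 and -0.23, lay on opposite sides of 0. The 8 further Slc2a genes measured as part of the wider pathway list differed by -0.12 (Slc2a2) to 0.21 (Slc2a4). Of these, 4 were above 0 and 4 below, beside 59.8% of all named genes above 0.

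The promoter windows of Slc2a1 and Slc16a1 are shown because they carry ACGTG, the core letters that hypoxia-inducible factors are known to bind in glycolytic genes. The Slc16a1 window also carries CACGTG, the letters that MYC is known to bind. The windows run from 250 bases before to 50 bases after the start of the gene (RefSeq, GRCm38.p6), 5′ to 3′ on the gene's strand, and capitals mark ACGTG on either strand, or CACGTG, which contains it. The Slc2a1 window is chr4:119108495-119108794 (+) and the Slc16a1 window is chr3:104638414-104638713 (+).
Slc2a1: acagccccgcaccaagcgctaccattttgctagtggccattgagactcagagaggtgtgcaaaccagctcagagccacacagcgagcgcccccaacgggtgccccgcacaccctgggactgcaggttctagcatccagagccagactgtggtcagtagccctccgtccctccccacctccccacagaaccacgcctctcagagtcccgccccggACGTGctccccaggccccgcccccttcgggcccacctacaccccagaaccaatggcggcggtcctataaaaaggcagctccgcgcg
Slc16a1: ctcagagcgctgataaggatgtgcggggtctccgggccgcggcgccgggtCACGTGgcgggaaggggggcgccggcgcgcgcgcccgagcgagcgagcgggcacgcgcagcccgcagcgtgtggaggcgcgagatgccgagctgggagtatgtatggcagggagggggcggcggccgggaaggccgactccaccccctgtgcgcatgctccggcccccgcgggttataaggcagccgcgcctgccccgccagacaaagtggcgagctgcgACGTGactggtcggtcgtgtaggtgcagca
The Slc2a1 window held 1 ACGTG and 0 CACGTG, and the Slc16a1 window held 1 CACGTG and 1 further ACGTG. Of the 58 genes, 56 had a promoter window in the RefSeq table, 78 windows in all. ACGTG occurred in 31 of these windows (39.7%), against 19.6% of all 32851 windows, and CACGTG in 9 (11.5%), against 7.15% of all windows. The windows of these genes were also richer in CG dinucleotides, with a median of 20, against 7 in all windows, and both motifs contain CG. A match is a description of letters, and the part of base composition was not tested. By gene, ACGTG was in the windows of 23 of the 56 genes (41.1%), against 21.8% of all genes with a window. Among the measured ones, differences ran from -0.25 (Pdhb) to 1.23 (Slc2a1), and Slc16a3, at -0.23, was one of them. The windows with ACGTG that are printed here belong to higher genes and do not stand for all of these.

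The upper part of glycolysis was uneven, with Pfkl and Pfkp as the genes past 1.5-fold. Of 10 measured genes from hexokinase to aldolase, 8 were above 0, against 59.8% of all named genes. At least 1.5-fold higher were 2, against 3.52% of all named genes, and the median difference was 0.17. Hk1, the widely expressed hexokinase, had a value of 0.62 with IL-3, against 0.36 without IL-3. Hk2, the isozyme often raised in proliferating cells, had a value of 0.29 with IL-3, against 0.22 without IL-3, and Hk3, an isozyme of myeloid cells, had a value of 0.40 with IL-3, against 0.35 without IL-3. The differences of Hk2 and Hk3, 0.07 and 0.04, were within the probe set SD. The second probe set of Hk1 went the other way, with a difference of -0.34. In probe set ID order it stands among genes of chromosome 14, whereas Hk1 lies on chromosome 10, where the neighbours of the chosen probe set lie.

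The phosphofructokinase genes encode the liver, platelet and muscle subunits of the enzyme that commits sugar to glycolysis. Pfkl, the liver subunit, had a value of 0.72 with IL-3, against -0.27 without IL-3, a 1.98-fold difference. Pfkp, the platelet subunit, had a value of 0.79 with IL-3, against 0.06 without IL-3, a 1.66-fold difference. Pfkm, the muscle subunit, had a value of 0.24 with IL-3, against 0.03 without IL-3. The array with IL-3 was higher for all 3 subunits, and the differences of Pfkl and Pfkp exceeded that of Pfkm by 0.77 and 0.53. The bifunctional enzymes that set the level of fructose 2,6-bisphosphate, an activator of phosphofructokinase, did not share this. Pfkfb3 had a value of 0.13 with IL-3, against 0.27 without IL-3, and Pfkfb4 differed by -0.01. Both differences were within the probe set SD. The aldolase genes Aldoa and Aldoc, whose products split the phosphorylated sugar into trioses, differed by 0.23 and 0.13.

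The lower part of glycolysis had the largest median difference of the groups with several genes. All 8 measured genes from triose phosphate isomerase to lactate dehydrogenase were above 0, against 59.8% of all named genes. At least 1.5-fold higher were 5 (62.5%, against 3.52% of all named genes), and the median was 0.83. Tpi1, triose phosphate isomerase, had a value of 1.08 with IL-3, against 0.28 without IL-3, a 1.74-fold difference. Pgk1, phosphoglycerate kinase, which makes the first ATP of this phase, had a value of 0.87 with IL-3, against 0.54 without IL-3, a 1.26-fold difference. Pgam1, phosphoglycerate mutase, had a value of 1.36 with IL-3, against 0.45 without IL-3, a 1.88-fold difference. Pgk1 thus had a smaller difference than Tpi1 and Pgam1. Gapdh, the step between Tpi1 and Pgk1, was not measured. Of the enolase genes, Eno3, known as the muscle form, had a value of 0.98 with IL-3, against 0.13 without IL-3, whereas Eno2, the neuronal form, had values of 0.00 with IL-3, against -0.02 without IL-3. Pkm, the pyruvate kinase gene of most tissues, had a value of 0.92 with IL-3, against 0.06 without IL-3, a 1.81-fold difference. The array values do not separate the splice forms of Pkm.

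Lactate dehydrogenase showed a split between its subunits. Ldha, the subunit that favours making lactate, had a value of 1.20 with IL-3, against 0.33 without IL-3, a 1.82-fold difference. Ldhb, the subunit that favours using it, had a value of 0.36 with IL-3, against 0.09 without IL-3, a 1.21-fold difference. Both were higher with IL-3, and the difference of Ldha was larger by 0.60. The Ldha promoter window is shown because it held more copies of CACGTG than that of Slc16a1. It is chr7:46845554-46845853 (+) in GRCm38.p6, with the same meaning of the capitals.
Ldha: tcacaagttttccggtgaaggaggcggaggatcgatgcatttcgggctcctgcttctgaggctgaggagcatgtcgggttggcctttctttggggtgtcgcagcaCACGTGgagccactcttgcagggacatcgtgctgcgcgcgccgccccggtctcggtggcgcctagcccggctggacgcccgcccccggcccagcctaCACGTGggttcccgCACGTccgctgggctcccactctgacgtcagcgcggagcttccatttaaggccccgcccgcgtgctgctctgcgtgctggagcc
It held 2 CACGTG and 1 further ACGTG, and the second Ldha window of the RefSeq table held none. CACGTG was found in the windows of 7 of the 56 genes, namely Ldha, Slc16a1, Ogdh, Pcx, Pdk2, Pfkfb3 and Pfkm. Their differences ran from -0.14 (Pfkfb3), within the probe set SD, to 0.87 (Ldha). Genes with the motif thus lay both near 0 and at high differences.

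Several of these genes have processed pseudogenes, copies in the genome that array probes can share, so their values are uncertain. Of 63 probe sets naming a measured gene alone, 9 stood in probe set ID order among genes of another chromosome than their own gene, and 4 of these were the chosen ones, those of Pgk1, Pgam1, Pkm and Suclg2. The other probe sets of these genes gave like values. Probe sets that share sequence would do so in any case, so this does not show which copy was read. Those of Pgk1 differed by 0.33, 0.33 and 0.31, those of Pgam1 by 0.91, 1.10 and 0.91, those of Pkm by 0.86 and 0.81, and those of Suclg2 by 0.40 and 0.39. With the probe sets among genes of their own chromosome alone, 18 genes were again at least 1.5-fold higher and 2 at least 1.5-fold lower. Over all genes with such a probe set, 3.51% were higher and 2.70% lower by as much.

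At the entry to the TCA cycle, the measured members past 1.5-fold were Pdk1 and Pdk3, which encode kinases that inactivate pyruvate dehydrogenase. Of 8 genes in this group, 7 were above 0 (87.5%, against 59.8% of all named genes), and the median was 0.30. At least 1.5-fold higher were 2 (25%, against 3.52%). Pdk1 had a value of 1.23 with IL-3, against 0.55 without IL-3, a 1.60-fold difference. Pdk3 had a value of 1.40 with IL-3, against 0.81 without IL-3, a 1.51-fold difference. Pdk2 had a value of -0.02 with IL-3, against -0.22 without IL-3. These 3 kinase genes were higher with IL-3, with Pdk3 just past the 1.5-fold mark. Pdk4, the remaining kinase gene, which belongs to the wider pathway list, differed by -0.06. Pdhx, a binding subunit of the complex in the same wider list, was also past 1.5-fold, at 0.71 or 1.63-fold higher. After the trend was subtracted, Pdk1 and Pdk3 were at 0.41 and 0.20.

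The subunits of the complex did not move as one. Pdha1, the alpha subunit of the dehydrogenase itself, had a value of 0.93 with IL-3, against 0.57 without IL-3. Pdhb, its beta subunit, had a value of -0.01 with IL-3, against 0.25 without IL-3, so the 2 subunits of the same tetramer differed in opposite directions, by 0.36 and -0.25. Dlat, the acetyltransferase core, differed by 0.09. Dld, the dehydrogenase that is shared with the 2-oxoglutarate dehydrogenase complex, had a value of 1.36 with IL-3, against 0.82 without IL-3, a 1.46-fold difference. Pcx, which turns pyruvate into oxaloacetate to refill the cycle, differed by 0.23.

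The pentose phosphate genes had a median difference of 0.20 and 0 of 6 measured genes at 1.5-fold in either direction, a count that says little beside 3.52% and 2.71% of all named genes. In its oxidative part, Pgls and Pgd, which process the product of glucose-6-phosphate dehydrogenase, were higher by 0.38 and 0.34. In its reversible part, the transketolase gene Tkt differed by 0.33, and the transaldolase gene Taldo1 had a value of 0.30 with IL-3, against 0.56 without IL-3, a difference of -0.26. Rpe and Rpia, which interconvert the pentose phosphates, differed by 0.07 and -0.08, within the probe set SD. The first enzyme of the pathway, G6pdx, is the one not measured here.

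The TCA cycle group was the largest, with 16 of 17 genes above 0 (94.1%, against 59.8% of all named genes) and a median of 0.44. At 1.5-fold, 7 were higher (41.2%, against 3.52% of all named genes) and 1 lower (5.88%, against 2.71%). The isocitrate dehydrogenases held both ends of the range. Idh3a, the catalytic subunit of the NAD-dependent mitochondrial enzyme, had a value of 1.58 with IL-3, against 0.56 without IL-3, a 2.02-fold difference. Idh2, the NADP-dependent mitochondrial enzyme, had a value of 1.02 with IL-3, against 0.04 without IL-3, a 1.97-fold difference. Idh1, the NADP-dependent enzyme of the cytosol and peroxisomes, had a value of 0.38 with IL-3, against 1.34 without IL-3, which was 1.95-fold lower. The differences of Idh2 and Idh1 thus lay 1.94 apart on the log2 scale, close to mirror images of each other, and Idh1 ranked 153 from the bottom of 19935 genes. Idh3b, a further subunit of the NAD-dependent enzyme, had a value of 0.28 with IL-3, against 0.05 without IL-3. Idh3g, the gamma subunit, had a value of 0.58 with IL-3, against 0.34 without IL-3. With differences of 0.23 and 0.24 for these 2 genes, the 3 subunits of this enzyme differed in the same direction by unequal amounts.

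Later steps of the cycle and the malate-aspartate shuttle, which moves the electrons of cytosolic NADH into mitochondria, were among the higher genes. Fh1, fumarate hydratase, had a value of 1.29 with IL-3, against 0.40 without IL-3, a 1.86-fold difference. Mdh2, the mitochondrial malate dehydrogenase, had a value of 1.16 with IL-3, against 0.44 without IL-3, a 1.64-fold difference. Mdh1, its cytosolic counterpart, had a value of 1.17 with IL-3, against 0.48 without IL-3, a 1.61-fold difference. The aspartate aminotransferases, which run the other arm of the shuttle, showed the same pattern. Got1, the cytosolic form, had a value of 1.39 with IL-3, against 0.63 without IL-3, a difference of 0.76. Got2, the mitochondrial form, had a value of 1.08 with IL-3, against 0.49 without IL-3, a difference of 0.59 that lay just past the 1.5-fold mark. For both pairs of enzymes the mitochondrial and the cytosolic form were thus higher with IL-3 by similar amounts, apart by 0.03 for the dehydrogenases and 0.17 for the aminotransferases, unlike the isocitrate dehydrogenases.

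The remaining genes of the cycle were higher with IL-3 by less than 1.5-fold. Sucla2, Suclg2 and Suclg1, subunits of succinyl-CoA synthetase, differed by 0.55, 0.40 and 0.33, the first just short of the 1.5-fold mark. Cs, citrate synthase, which makes citrate from oxaloacetate and acetyl-CoA, differed by 0.44. Ogdh and Dlst, subunits of the 2-oxoglutarate dehydrogenase complex, differed by 0.23 and 0.13. Aco1, the cytosolic aconitase that also acts as an iron sensor, had a value of -0.10 with IL-3, against -0.29 without IL-3, and was the one TCA group member below the baseline on both arrays.

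Txnip encodes thioredoxin-interacting protein, an arrestin-family protein that promotes the removal of GLUT1 from the cell surface and whose transcription rises with sugar phosphates through the MondoA and ChREBP factors with their partner Mlx. It had a value of -0.27 with IL-3, against 0.71 without IL-3, which was 1.96-fold lower and ranked 144 from the bottom of 19935 genes. Txnip and Slc2a1 thus lay at the lower and upper end of the measured members, 2.20 apart. The Txnip promoter window, chr3:96557707-96558006 (+) in GRCm38.p6, is shown because it holds the paired boxes that MondoA is known to bind, with CACGAG in capitals.
Txnip: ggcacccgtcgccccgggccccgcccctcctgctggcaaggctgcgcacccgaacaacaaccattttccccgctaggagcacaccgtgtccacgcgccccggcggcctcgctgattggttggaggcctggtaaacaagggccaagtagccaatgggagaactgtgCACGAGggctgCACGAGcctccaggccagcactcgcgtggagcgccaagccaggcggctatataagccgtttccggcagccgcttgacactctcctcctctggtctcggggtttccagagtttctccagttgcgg
The 2 boxes were CACGAG with 5 bases between them. This pair, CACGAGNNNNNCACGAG on either strand, was found in 1 of 32851 windows, that of Txnip, whereas CACGAG alone was in 6.47% of all windows and in the windows of 8 of the 56 genes. This motif was chosen after the window was seen. Arrdc4, a paralogue of Txnip known to respond to the same factors, had a value of -0.13 with IL-3, against -0.30 without IL-3, and so differed by 0.17 in the opposite direction to Txnip. The factor genes Mlx, Mlxip, which encodes MondoA, and Mlxipl, which encodes ChREBP, differed by 0.16, -0.19 and -0.08.

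Other genes of the same pathways, 105 in 4 lists also chosen with earlier results of these data known, were examined for comparison. Of these genes, 96 had a value. Their median difference was 0.10, and 68 of them (70.8%) were above 0, against 59.8% of all named genes. At 1.5-fold, 9 were higher (9.38%, against 3.52% of all named genes) and 0 lower (against 2.71%). These counts became 6 and 0 after quantile normalization, against 2.41% and 3.24% of all named genes. With the loess trend subtracted they were 5 and 1, against 1.79% and 3.71%. Among 41 genes of glucose uptake, glycolysis and its control, the median was 0.04. Only Egln1 was past 1.5-fold (2.44%, against 3.52% of all named genes). Egln1, an oxygen-sensing hydroxylase that marks hypoxia-inducible factors for destruction, had a value of 1.56 with IL-3, against 0.65 without IL-3. Hif1a, which encodes an oxygen-regulated transcription factor of glycolytic genes, had the lowest difference of this list, with a value of 0.60 with IL-3, against 0.98 without IL-3. Myc, another activator of glycolytic genes, had a value of 1.08 with IL-3, against 0.69 without IL-3.

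The list of other pyruvate, TCA cycle and shuttle genes had 20 of 23 genes above 0 and a median of 0.28. This was 87.0%, against 59.8% of all named genes. At 1.5-fold, 4 genes were higher (17.4%, against 3.52% of all named genes) and 0 lower (against 2.71%). Of these 4, Gpt2, a mitochondrial alanine aminotransferase, was at 1.74-fold and the dicarboxylate carrier gene Slc25a10 at 1.66-fold. Pdhx, a binding subunit of the pyruvate dehydrogenase complex, was at 1.63-fold and the mitochondrial malic enzyme gene Me2 at 1.54-fold. The 4 succinate dehydrogenase genes were all higher with IL-3, from 0.25 (Sdhd) to 0.56 (Sdhb). The lowest gene was D2hgdh, which clears 2-hydroxyglutarate, at -0.23. In the gluconeogenesis and glycogen list, 17 of 22 genes were above 0 (77.3%, against 59.8% of all named genes), with a median of 0.12. In this list 4 genes were at least 1.5-fold higher (18.2%, against 3.52%) and 0 lower (against 2.71%). Slc37a4 and G6pc3, the transporter and the phosphatase that handle glucose 6-phosphate at the endoplasmic reticulum, were 2.06-fold and 1.60-fold higher. Pgm1, a phosphoglucomutase gene, was 2.01-fold higher and the glycogen synthase gene Gys1 1.59-fold higher, while Gyg, the glycogen primer glycogenin, had the lowest difference of the list at -0.46. The list of other pentose phosphate genes had 0 of 10 genes at 1.5-fold in either direction. That count says little beside 3.52% higher and 2.71% lower of all named genes. The median of this list, 0.04, was close to that of all named genes. Prps1, which makes phosphoribosyl pyrophosphate, was the highest at 0.56, and Pgm2l1 the lowest at -0.25.

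The members stood high relative to the baseline. Both arrays were above the baseline in 44 of 54 genes (81.5%), against 34.3% of all named genes. By the mean of both arrays, 38 of the 54 genes fell in the highest 25% of all named genes. In that range, differences were also larger among all genes, with 12.8% at least 1.5-fold higher and 6.68% at least 1.5-fold lower, against 17 and 1 of the 38 members. The median difference in that range was 0.49 for the members and 0.11 for all genes. The part of this property in the counts above was not tested. Subtracting the trend of the difference with the mean (loess) left 11 genes higher by at least 1.5-fold and 2 lower by as much, against 1.79% and 3.71% of all named genes on that scale. These 11 were Slc2a1, Pfkl, Pfkp, Tpi1, Pgam1, Eno3, Pkm, Ldha, Idh2, Idh3a and Fh1. Slc16a1, Pdk1, Pdk3, Mdh1, Mdh2, Got1 and Got2 fell short of 1.5-fold on that scale, at 0.20 (Pdk3) to 0.48 (Mdh2). Under the 4 scalings compared, 43 genes were above 0 in each and 8 were below 0 in each. The exceptions were Dlat and Hk3, which were below 0 after the trend was subtracted, and Rpe, which was below 0 after that and after quantile normalization.

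**Figure D3:**
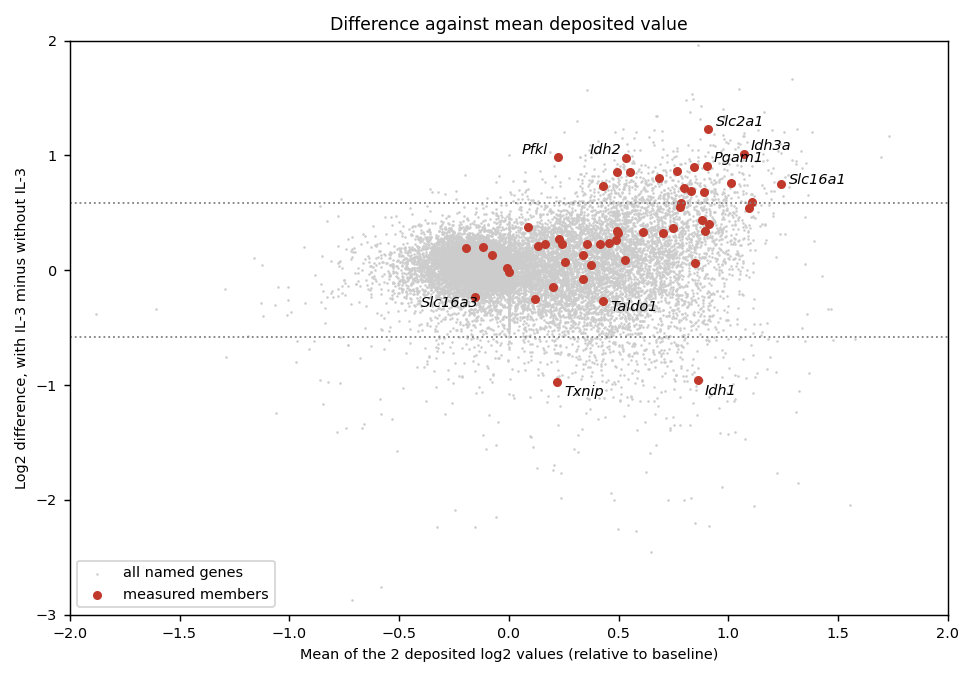
Log2 difference, with IL-3 minus without IL-3, against the mean of both deposited log values, taken as log2. Points are 19935 named genes (grey) and the 54 measured members (red), with dotted lines at 1.5-fold. Most members lie at high means, where the scatter of all genes is also wider, and Txnip and Idh1 lie below the lower line.

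**Figure D4:**
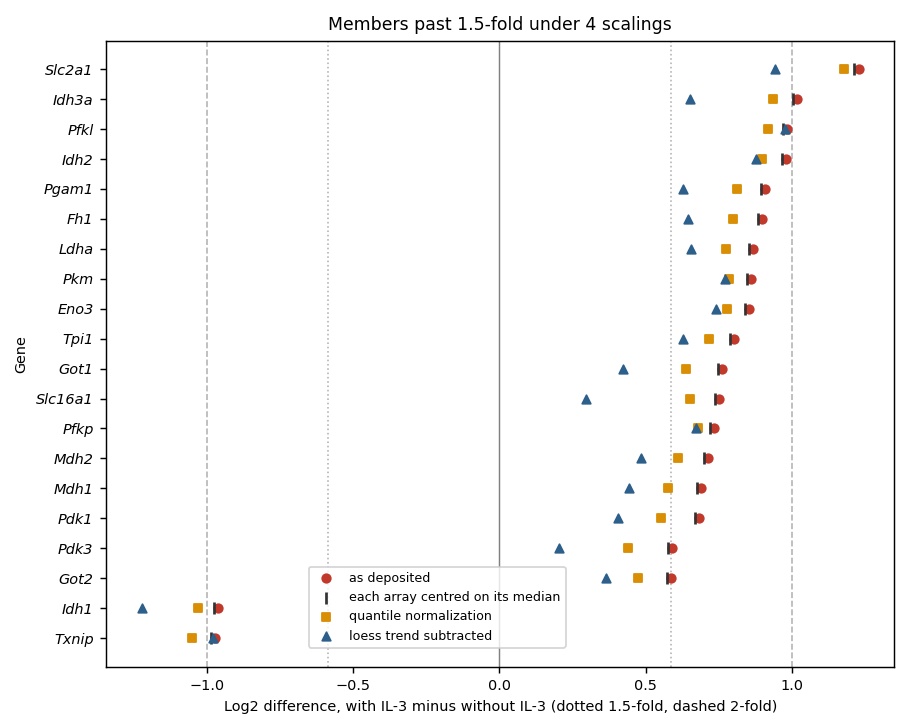
Log2 differences of the 20 members past 1.5-fold as deposited, after centring each array on its median, after quantile normalization and after subtraction of a loess trend. All 20 keep their direction, and 11 of the 18 higher genes stay past 1.5-fold under each scaling.

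The cell type could not be checked by levels, because only values relative to the baseline were at hand. B-lineage markers had a median difference of 0.06 (12 of 13 measured, 1 at least 1.5-fold lower, Ptprc at -0.73). Mast cell and basophil markers had a median of -0.31 over 11 genes, of which 4 were lower by at least 1.5-fold and 0 higher, with a range of -2.46 (Fcer1a) to 0.19 (Tpsb2). Granulocyte markers had a median of -0.09 over 12 genes, of which 4 were lower by at least 1.5-fold and 0 higher, with a range of -2.87 (Ngp) to 0.38 (S100a9). Macrophage markers had a median of -0.07 over 7 genes, with 1 at least 1.5-fold lower, Adgre1 at -0.79. Over all named genes, 3.52% were higher and 2.71% lower by at least 1.5-fold. The part of these markers' genes in the differences of the metabolic genes was not tested.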

How the data were processed

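RNA was measured on 2 one-colour Affymetrix Gene ST arrays, 1 per condition, from biotin-labelled sense-strand cDNA, per the labels' protocols. The authors deposited 1 log2 value per array for each of 28815 probe sets. The values themselves show a per-probe-set baseline: 1760 probe sets (6.11%) had equal and opposite values within 1e-05. The sources used here do not give the log base (taken as 2), the normalization, the direction of the scale or the arrays the baseline was made from. The median value was -0.03 on the array with IL-3, against -0.05 on the other. The number of arrays limits the precision.

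Probe sets were named through GEO's platform annotation: 21780 had 1 gene symbol, 1605 several and 5430 none, and only the first were used. All 54 measured members matched the RefSeq gene table (GRCm38.p6) by gene ID. The 58 members, the role groups and the pathway lists were chosen with earlier results of these data known. Genes were counted by fixed differences of 1.5-fold and 2-fold, with no filter and no test. Values of both arrays are given for members past 1.5-fold and their isozymes, and the other members by difference or range, except that both values are also given for Hk1, Hk2, Hk3, Pfkfb3, Pgk1, Taldo1, Aco1, Pdha1, Pdhb and Dld, chosen after their values were seen. Of the other pathway genes, those past 1.5-fold and the lowest or highest of each list are named, and Arrdc4, Mlx, Mlxip, Mlxipl, Myc, Pdk4, Slc2a2, Slc2a4 and the succinate dehydrogenase genes were named after their values were seen. Proteins of isozymes were not compared. The error of the counts was not tested. Alternatives were median centring, quantile normalization, a subtracted loess trend (span 0.3), other rules for the probe set, a filter at each array's median and a natural log base. Python 3.11.15, pandas 2.3.3, numpy 2.4.6 and statsmodels 0.14.6 were used.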

Additional observations from a re-analysis of the deposited data

How the results depend on the processing

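No paired analysis was possible because each condition had 1 array and the labels give no replicate numbers. Under all 8 alternatives, the genes past 1.5-fold that had a value kept their direction (20 of 20, or 18 of 18 under the filter, which left 47 of the 54 genes). The natural log base and the filter cannot change a direction, and median centring shifted all differences alike by less than 1.5-fold. Among the 20 genes, the probe set rules could change only Pgam1, Pkm and Got2, which had several probe sets. The agreement was thus largely fixed in advance, except under quantile normalization and the loess trend. Median centring, the mean over probe sets, the probe set with the lowest mean, and the choice by neighbouring probe sets, which was added after seeing the data, left the counts within 1.5 times and the medians within the probe set SD of 0.14. Quantile normalization put 1 gene past 2-fold on the higher side and 2 on the lower side, against 62 and 161 of 19935 named genes. Subtraction of the loess trend put 0 genes past 2-fold on the higher side and 1 on the lower side. Of 19935 named genes, 29 and 205 did so. It put 11 genes past 1.5-fold on the higher side, against 1.79% of all named genes. The medians were then 0.18 for transport, 0.63 for the lower part of glycolysis and 0.23 for the TCA group. With both arrays at or above their median, 18 of the 20 genes past 1.5-fold remained, and Txnip and Pfkl did not pass. Of those that remained, 1 was lower and the others were higher. Of the 8376 named genes that passed, 3.33% were lower and 7.40% higher by at least 1.5-fold. The medians were 0.75 for transport and 0.31 for gluconeogenesis and glycogen. On baseline-relative values such a filter does not select expressed genes. If the values are natural logs, 14 genes passed 2-fold on the higher side and 2 on the lower side. Of 19935 named genes, 419 and 375 then did so, because this scale enlarges every difference. The median of the members was then 0.47, against 0.06 over all named genes. The group medians were 0.79 for transport, 1.19 for the lower part of glycolysis and 0.63 for the TCA group. Of the 96 other pathway genes, 17 then passed 1.5-fold on the higher side and 1 on the lower side. Over all named genes, 7.40% and 5.42% then did so. Beyond the construction of each alternative, the cause was not tested. Over all named genes, the share of higher genes among those past 2-fold was 37.9% after centring, 27.8% after quantile normalization and 12.4% with the trend subtracted, against 40.2% as deposited. With 1 array a condition, the variation between cultures is unknown.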
